A study of Homo sapiens with 18 samples.

Results

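The genes described here are the canonical histone genes, which lie in clusters and carry symbols beginning with HIST1H, HIST2H, HIST3H or HIST4H. They were taken from the deposited expression table by symbol, without pseudogenes, where a gene was above 0 in 3 or more of the 18 libraries. This gave 65 of the 35616 genes listed, made up of 6 linker histone H1 genes and 59 core histone genes (16 of H2A, 17 of H2B, 13 of H3 and 13 of H4). The table held 89 symbols with these beginnings, of which 19 were left out as pseudogenes and 5 coding genes were left out because they were above 0 in fewer than 3 libraries. Among the 19, HIST2H3PS2 was left out by its symbol, although GENCODE lists it as protein coding and it was above 0 in 7 libraries. In the GENCODE annotation of GRCh38, 51 of the 65 genes lie on chromosome 6, 13 on chromosome 1 and 1, HIST4H4, on chromosome 12.

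The libraries came from HUDEP-2, an established erythroid progenitor line from human umbilical cord blood, either unedited (WT) or with a disrupted beta-globin gene HBB (HBBko). Each line gave 3 libraries at each of 3 stages, undifferentiated, 48 h and 5 d into differentiation, and the labels name no other allele or agent. The labels do not say whether HBBko is 1 clone or whether the triplicates were separate cultures, so p-values measure the spread between these libraries, which may be technical. The table's columns name the lines as thal and wen, which were read as HBBko and WT from the names alone. At each stage all 3 libraries named thal had less HBB than all 3 named wen.

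Values are TPM, an expression level per unit of transcript length, that had also been scaled between libraries (scaled TPM), with library sums from 783213 to 1508342 and 10410 to 11294 genes at 1 or more. Reads per library are unknown, so the error comes from replicate spread alone. Undifferentiated WT was the least uniform group: its libraries correlated at 0.987 to 0.993 across genes, against 0.995 to 0.998 in the other 5 groups. Within it, HBB was at 22376 in replicate 3, against 12517 and 12454 in replicates 1 and 2. The 8 erythroid markers were all present in every group, and their summed level ran from 5071 to 8481 in undifferentiated WT and from 5993 to 6709 in undifferentiated HBBko. All 6 myeloid, all 5 lymphoid and all 5 stromal markers were under 1 in every library, and so were 4 of the 5 megakaryocyte markers.

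As background, core histones form the protein spool of the nucleosome, and linker H1 binds the DNA where it enters and leaves that spool. Canonical histone genes are transcribed mainly in S phase, when new DNA has to be packaged. Their messages usually end in a conserved stem-loop and carry no poly(A) tail, although some histone genes also make polyadenylated messages, a form known to accumulate in cells that differentiate and leave the cycle. Erythroid cells divide a few more times as they fill with haemoglobin, then condense and expel the nucleus. The libraries were made with the TruSeq RNA kit in its second version, which selects poly(A) RNA and does not mark strand. A change in the amount of a histone message and a change in the share of it that is polyadenylated therefore cannot be told apart in any result below, nor can fewer expressing cells and less RNA per cell.

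Histone genes of a class are near copies, which bears on how reads are assigned to them. The first 60 coding bases of 3 H4 genes that differed in level and response are shown here from GENCODE transcripts, with the 15 positions at which they differ from one another in capitals.
HIST1H4C: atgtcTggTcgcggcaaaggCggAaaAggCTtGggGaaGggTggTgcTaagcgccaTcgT
HIST1H4J: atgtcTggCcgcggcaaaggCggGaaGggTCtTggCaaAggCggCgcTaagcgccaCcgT
HIST1H4I: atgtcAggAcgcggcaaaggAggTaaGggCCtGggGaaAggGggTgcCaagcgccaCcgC
Over the 312 coding bases of the 13 H4 genes, identity between pairs had a median of 83.3% and ranged from 79.2% to 100%. Identity was 77.6% to 100% among 13 H2A genes, 84.8% to 94.0% among 15 H2B genes and 81.0% to 100% among 13 H3 genes of equal coding length. Transcripts of HIST2H3A and HIST2H3C were identical, and the table gives both the same values. Levels of HIST2H2AA3 and HIST2H2AA4 also traded places between libraries, so the pair is given as a sum where it matters.

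Promoters of 55 of the 65 genes were found in the RefSeq table of GRCh38.p14 (250 bases before to 50 bases after the start). Those of HIST1H1C, HIST1H1D and HIST1H2BK are shown because HIST1H1C and HIST1H2BK had the largest positive difference in HBBko cells at 5 d among linker and core genes, and HIST1H1D is a linker gene that was lower there. Capitals mark matches on either strand to the TATA box TATAAA, the CCAAT box CCAAT, the H1 box AAACACA and the octamer ATTTGCAT, and overlapping matches run together.
HIST1H1C, chr6:26056421-26056720, minus strand: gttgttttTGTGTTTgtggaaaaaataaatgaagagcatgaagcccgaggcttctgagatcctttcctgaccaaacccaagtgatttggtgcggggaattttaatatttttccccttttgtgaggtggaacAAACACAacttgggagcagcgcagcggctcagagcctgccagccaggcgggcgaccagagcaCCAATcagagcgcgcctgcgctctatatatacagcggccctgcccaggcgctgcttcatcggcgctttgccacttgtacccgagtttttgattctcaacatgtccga
HIST1H1D, chr6:26234938-26235237, minus strand: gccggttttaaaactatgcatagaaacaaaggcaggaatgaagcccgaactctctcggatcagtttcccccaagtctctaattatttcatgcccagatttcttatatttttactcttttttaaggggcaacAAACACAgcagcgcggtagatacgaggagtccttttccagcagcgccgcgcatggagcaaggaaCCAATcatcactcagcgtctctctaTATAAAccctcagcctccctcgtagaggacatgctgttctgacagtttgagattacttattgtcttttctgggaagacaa
HIST1H2BK, chr6:27146809-27147108, minus strand: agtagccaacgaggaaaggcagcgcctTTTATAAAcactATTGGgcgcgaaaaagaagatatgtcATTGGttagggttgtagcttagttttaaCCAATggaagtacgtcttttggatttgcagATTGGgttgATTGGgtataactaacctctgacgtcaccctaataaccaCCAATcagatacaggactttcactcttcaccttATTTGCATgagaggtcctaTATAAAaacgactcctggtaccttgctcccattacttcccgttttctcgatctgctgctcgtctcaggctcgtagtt
The H1 box was in the promoters of 6 of 6 linker genes, 1 of 15 H2A, 2 of 11 H3 and no H2B or H4 genes, against 5.76% of all 27305 promoters. The CCAAT box was in 6 of 6 linker promoters, in all promoters of H2A (15), H2B (12) and H3 (11), and in 3 of 11 of H4, against 35.7% of all promoters. The octamer was in 10 of 15 H2A and 8 of 12 H2B promoters, in 1 of 11 of H3 and in none of H1 or H4, against 1.8% of all promoters. TATAAA was in 35 of the 55, against 12% of all promoters. HIST1H1C and HIST1H1D share the H1 box and the CCAAT box, and of these 2 only the window of HIST1H1D holds the exact string TATAAA. The HIST1H1C window holds the similar stretch tatatata, which an exact search for TATAAA does not count. These matches are descriptions of the sequence.

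HBBko cells at 5 d had the highest linker histone level of the 6 groups, nearly all of it from HIST1H1C, while the core level was lower in HBBko than in WT at 48 h. The summed linker level in undifferentiated WT was 38.8, 40.5 and 50.8 scaled TPM, at 48 h 46.7, 44.5 and 61.5, and at 5 d 70.8, 71.2 and 82.7. In HBBko it was 52.6, 52.8 and 53.4 undifferentiated, 40.8, 34.7 and 40.4 at 48 h, and 324, 341 and 486 at 5 d. The HBBko libraries at 5 d stood above every other library. The summed core level in WT was 197 ± 61.8 (SD, n = 3), 335 ± 49.6 and 262 ± 28.9 in order of stage, and in HBBko 156 ± 8.27, 170 ± 13.0 and 328 ± 52.5. At 48 h the core sums did not overlap, with WT at 295 to 390 and HBBko at 158 to 184. At 5 d the core sum was 232 to 289 in WT and 297 to 389 in HBBko, but its classes went in both directions. The mean H2A sum was 105 in WT and 157 in HBBko, and that of H2B was 56.9 and 114. For H3 it was 32.0 in WT and 22.2 in HBBko, and for H4 68.4 and 35.0. Library sums rose with stage, and as a share of the library sum the course differed. At 5 d HBB, the disrupted gene, was at 427628 to 458719 in WT and 69004 to 72650 in HBBko. These HBB values are part of the library sums, so the shares of the 2 lines at 5 d have unlike denominators. The linker share in WT was 0.00528%, 0.00538% and 0.00507% in order of stage, and in HBBko 0.00667%, 0.00452% and 0.0328%. The core share in WT was 0.0239% ± 0.00602 (SD, n = 3), 0.0355% ± 0.00394 and 0.0177% ± 0.00167, so that its mean at 5 d was below the undifferentiated mean, and in HBBko it was 0.0197%, 0.0199% and 0.0281%.

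**Figure D1:**
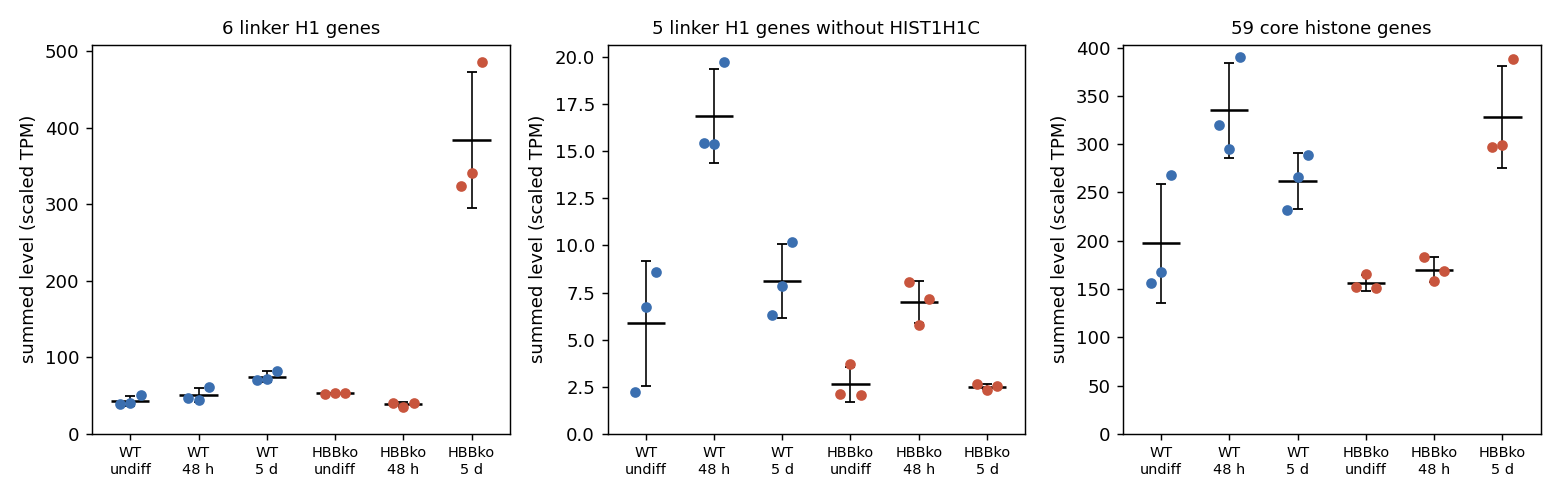
Summed level in scaled TPM (y axis, linear) of the 6 linker H1 genes, of the 5 without HIST1H1C, and of the 59 core histone genes, in each of 6 groups (x axis). Points are libraries, horizontal lines the mean of 3 and error bars the SD; the linker sum stands apart in HBBko at 5 d (324 to 486), while the 5 other linker genes are lower there (2.35 to 2.65) than in WT at 5 d (6.29 to 10.2).

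The log2 ratio of the linker sum to the core sum took the same order of stages in both lines, lowest at 48 h and highest at 5 d. It was -2.15 ± 0.22 (SD, n = 3), -2.72 ± 0.05 and -1.81 ± 0.10 in WT, and -1.56 ± 0.08, -2.14 ± 0.07 and 0.21 ± 0.10 in HBBko. At each stage the lowest HBBko library was above the highest WT library. These sums are descriptions with no test. Without HIST1H1C, the mean log2 ratio was lower in HBBko than in WT at each stage and was highest at 48 h in both lines. It was -5.25 ± 0.80, -4.31 ± 0.05 and -5.04 ± 0.19 in WT in order of stage, and -5.95 ± 0.40, -4.61 ± 0.14 and -7.02 ± 0.23 in HBBko. The lines overlapped in undifferentiated cells but not at 48 h or 5 d. Both orders seen with all 6 linker genes therefore depended on HIST1H1C. HIST1H1C was 89.3% ± 1.73 of the linker sum in WT at 5 d and 99.3% ± 0.15 in HBBko at 5 d, and 66.7% ± 1.22 in WT at 48 h.

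HIST1H1C, now named H1-2, had the highest level of the 6 canonical linker genes and lies at chr6:26055787-26056428 on the minus strand. Its level in WT was 36.6, 33.7 and 42.2 scaled TPM undifferentiated, 31.2, 29.1 and 41.7 at 48 h, and 64.5, 63.3 and 72.6 at 5 d. In HBBko it was 50.5, 49.1 and 51.3 undifferentiated, 32.7, 28.9 and 33.2 at 48 h, and 322, 338 and 484 at 5 d. The lines overlapped at 48 h, and at the other stages every HBBko library was above every WT library. Differences were tested on log2(scaled TPM + 1) with limma over all 12005 genes that had at least 1 scaled TPM in 3 or more libraries, and a gene is called where the Benjamini-Hochberg adjusted p is under 0.05; this scale understates the change of low genes. HIST1H1C was higher in HBBko by a log2 fold change of 2.47 ± 0.14 (SE of the limma fit, adjusted p = 5.1e-10) at 5 d and by 0.42 ± 0.14 (adjusted p = 0.02 in limma) undifferentiated. At 48 h its difference was -0.09 ± 0.14 (limma, adjusted p = 0.72). The undifferentiated call was lost when 1 of several libraries was left out, with a limma adjusted p of 0.076 once WT replicate 2 was dropped, 0.053 for HBBko replicate 1 and 0.054 for HBBko replicate 3.

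The other 3 linker genes that passed the filter, HIST1H1B, HIST1H1D and HIST1H1E, were lower in HBBko at 48 h and 5 d. Of all tested genes, 9.21% were called lower and 9.52% higher at 48 h, and 24.8% and 26.5% at 5 d. HIST1H1B (H1-5) was at 6.30, 6.58 and 9.43 in WT and 3.27, 2.88 and 3.54 in HBBko at 48 h, and at 3.52, 4.20 and 5.20 against 1.26, 1.14 and 1.03 at 5 d. HIST1H1D (H1-3) was at 4.69, 4.83 and 6.25 against 2.70, 1.41 and 2.06 at 48 h, and at 1.50, 2.10 and 2.47 against 0.518, 0.619 and 0.550 at 5 d. HIST1H1E (H1-4) was at 4.35, 3.93 and 3.95 against 2.01, 1.50 and 1.49 at 48 h, and at 1.24, 1.53 and 2.40 against 0.834, 0.525 and 0.901 at 5 d. In each of these 6 comparisons every HBBko library was below every WT library. At 48 h the log2 fold changes were -0.98 ± 0.28 for HIST1H1B, -1.05 ± 0.20 for HIST1H1D and -0.94 ± 0.21 for HIST1H1E, with limma adjusted p of 0.023, 0.0017 and 0.0046. At 5 d they were -1.30 ± 0.28, -0.94 ± 0.20 and -0.62 ± 0.21, with limma adjusted p of 0.0011, 0.00086 and 0.019. The HIST1H1B call at 48 h was lost without WT replicate 3 (limma adjusted p = 0.12) and the HIST1H1E call at 5 d without WT replicate 3 (0.10). HIST1H1A, above 0 in 4 libraries with a highest value of 0.0612, and the testis form HIST1H1T, above 0 in 12 with a highest value of 0.0932, were too low to test.

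**Figure D2:**
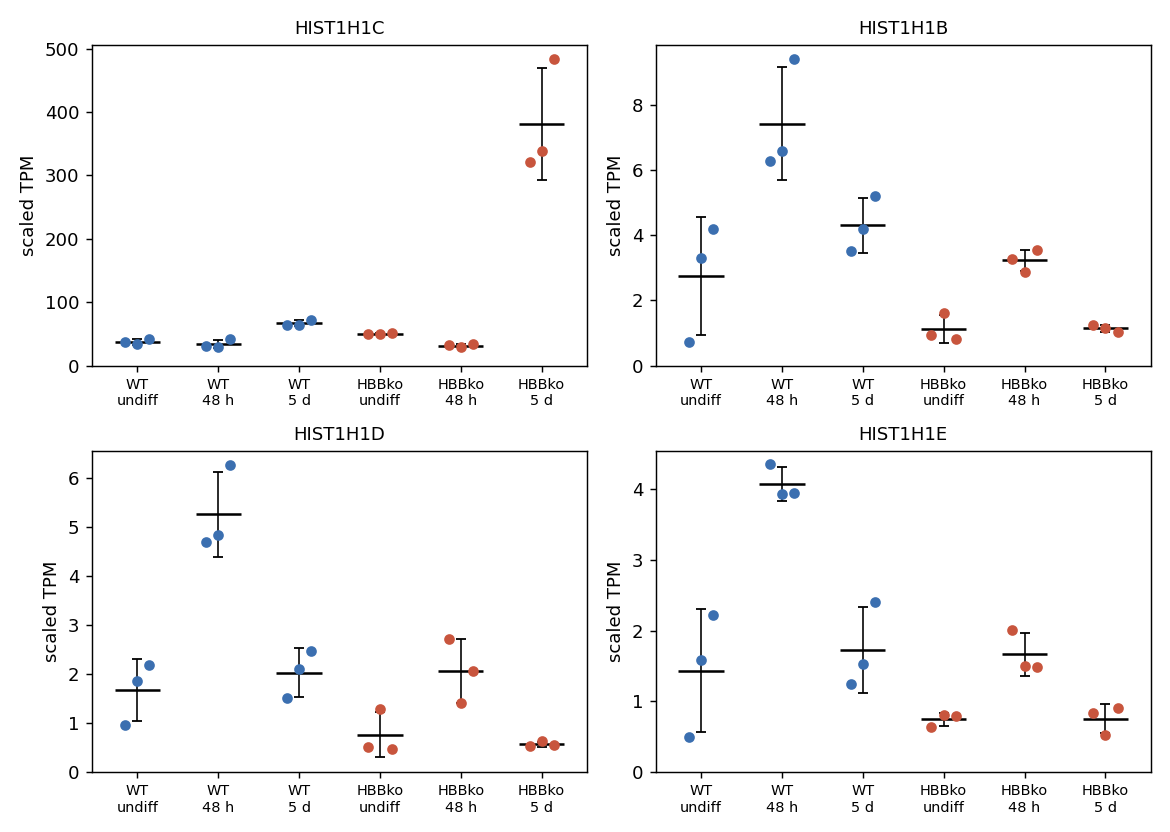
Level in scaled TPM (y axes, linear, each with its own range) of the 4 linker H1 genes that passed the filter, by group (x axis). Points are libraries, lines the mean of 3 and bars the SD; HIST1H1C alone of the 4 is higher in HBBko at 5 d (322 to 484 against 63.3 to 72.6 in WT), and the other 3 peak in WT at 48 h.

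Linker genes also differed among themselves along the time course. HIST1H1B, HIST1H1D and HIST1H1E rose from undifferentiated to 48 h in WT by log2 fold changes of 1.30, 1.25 and 1.13 and in HBBko by 1.01, 0.81 and 0.61, then fell by 5 d in both lines. HIST1H1C did the reverse in HBBko, where it fell by 0.66 ± 0.14 (limma, adjusted p = 0.00046) to 48 h and then rose by 3.53 ± 0.14 (limma, adjusted p = 2.6e-13) to 5 d. In WT it changed by -0.15 ± 0.14 (limma, adjusted p = 0.36) and then rose by 0.97 ± 0.14 (limma, adjusted p = 4.6e-06). The rise to 5 d was larger in HBBko by 2.56 ± 0.19 on the log2 scale (interaction term in limma, adjusted p = 3.6e-07). For HIST1H1B, HIST1H1D and HIST1H1E the same interaction was -0.32, 0.11 and 0.32, with limma adjusted p of 0.61, 0.83 and 0.47.

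In undifferentiated cells, histone genes were called lower in HBBko more often than higher, chiefly those of H4 and H3, but how many were called lower depended on single libraries. Of the 55 members that passed the filter, 22 were called lower and 3 higher, where 22.3% and 20.9% of all tested genes were called lower and higher. By class, 8 of 13 H4, 6 of 11 H3, 4 of 13 H2B, 3 of 14 H2A and 1 of 4 H1 genes were lower. The median log2 fold change of the 55 was -0.44, against -0.01 over all tested genes. HIST1H4C (chr6:26103876-26104310, plus strand), the H4 gene with the second highest mean level, was at 7.30, 7.99 and 19.3 in WT and 4.76, 4.07 and 3.44 in HBBko, with a difference of -1.18 ± 0.24 (limma, adjusted p = 0.00099). HIST1H4B was lower by -1.26 ± 0.23 and HIST1H4A by -0.97 ± 0.20, with limma adjusted p of 0.00039 and 0.0011. The 3 called higher were HIST1H1C, HIST1H2BK and HIST2H2AA4. HIST1H2BK was at 29.6, 20.8 and 30.7 in WT and 45.2, 42.4 and 46.2 in HBBko, a difference of 0.72 ± 0.15 (limma, adjusted p = 0.0011). The summed pair of HIST2H2AA3 and HIST2H2AA4 did not pass, at 0.13 ± 0.16 (limma, adjusted p = 0.56). WT replicate 3 had the highest level of HIST1H4A, HIST1H4B and HIST1H4C in its group, and without that library 2 members were called higher and 9 lower, or 3.64% and 16.4% of the 55, where 18.1% and 20.1% of all tested genes were. Without HBBko replicate 1 the counts were 1 and 12, or 1.82% and 21.8%, where 16.5% and 17.6% of all tested genes were. In both of these fits the share of members called lower was near that of all genes.

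At 48 h the members were lower in HBBko across all 5 classes. Of 55 tested, 38 were called lower and 0 higher, where 9.21% of all tested genes were called lower and 9.52% higher. The median of the 55 was -0.91, against 0.02 over all tested genes. All 11 H3 genes, 10 of 13 H4, 8 of 14 H2A, 6 of 13 H2B and 3 of 4 H1 genes were lower. HIST1H4C was at 30.9, 27.5 and 35.1 in WT and 15.1, 12.5 and 14.8 in HBBko, a difference of -1.09 ± 0.24 (limma, adjusted p = 0.0053). HIST1H3J was at 10.4, 9.59 and 13.4 against 3.91, 2.56 and 2.93, a difference of -1.55 ± 0.26 (limma, adjusted p = 0.00066). The 2 lines did not overlap for either gene. HIST1H3J shares 350 bases of its gene model with HIST1H2AM on the same strand, so part of its reads may belong to either. Other large differences were HIST1H4L at -1.42 ± 0.24 and HIST1H4F at -1.30 ± 0.31 (limma adjusted p of 0.00065 and 0.0084; without WT replicate 3, 0.052 for HIST1H4F). HIST1H2BK was at 20.7, 19.1 and 20.5 in WT and 24.7, 22.8 and 24.1 in HBBko, a difference of 0.24 ± 0.15 (limma, adjusted p = 0.31).

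**Figure D3:**
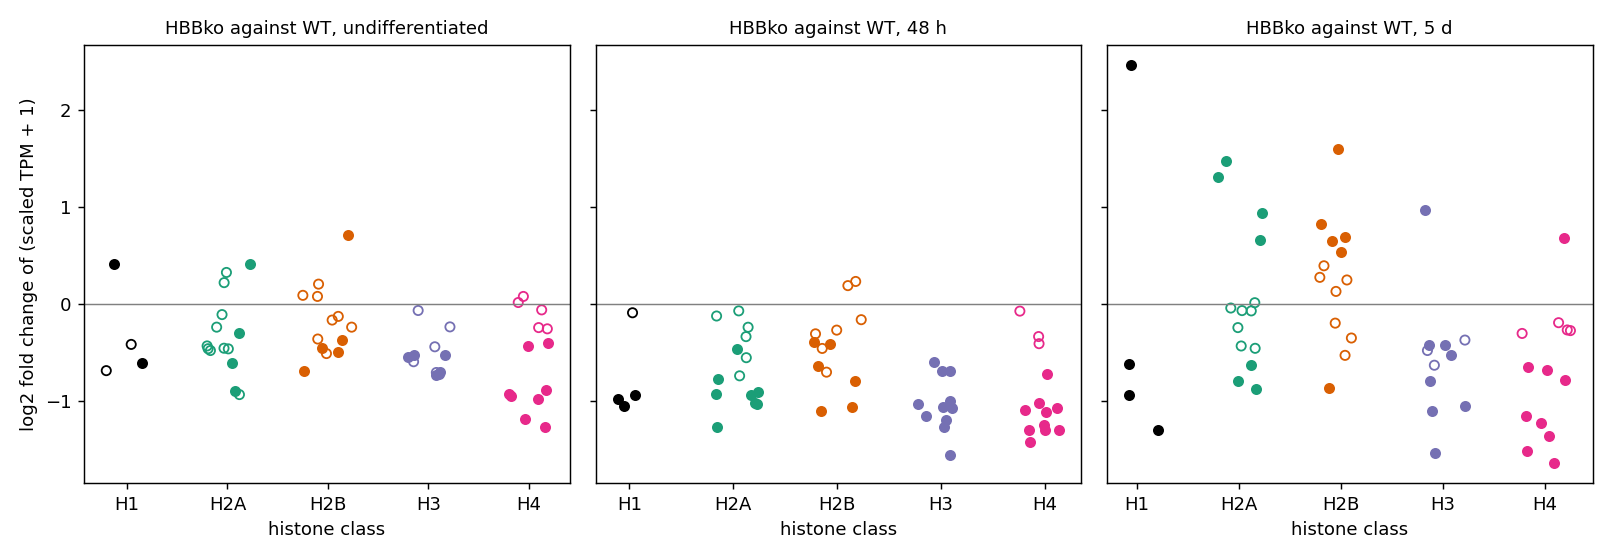
Log2 fold change of HBBko against WT on log2(scaled TPM + 1) (y axis) for the 55 tested histone genes by class (x axis), with 1 panel per stage. Filled points were called at an adjusted p under 0.05 and open points were not; at 48 h filled points lie below 0 in every class, and at 5 d they lie on both sides (12 higher, 22 lower).

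At 5 d members were called in both directions, with H3 and H4 genes mostly lower and H2B genes mostly higher among those called. Of 55 tested, 12 were called higher and 22 lower in HBBko, where 26.5% and 24.8% of all tested genes were called higher and lower. Of H3 genes 7 of 11 were lower and 1 higher, and of H4 genes 8 of 13 and 1. H2B had 5 called higher and 1 lower of 13, H2A 4 higher and 3 lower of 14, and H1 1 higher and 3 lower of 4. After rescaling the libraries to equal sums, 18 of 57 members were higher and 14 lower at 5 d, or 31.6% and 24.6%, where 53.8% and 8.67% of all tested genes were; that scaling raises the median of all tested genes by 0.25 in this comparison. HIST1H4C was at 11.5, 16.3 and 16.7 in WT and 4.08, 4.82 and 3.28 in HBBko, a difference of -1.64 ± 0.24 (limma, adjusted p = 3.1e-05). HIST1H3J (3.54, 6.14 and 4.88 against 1.44, 0.913 and 0.686) was lower by -1.53 ± 0.26 and HIST1H4F by -1.52 ± 0.31, with limma adjusted p of 0.00013 and 0.00069. Their WT and HBBko libraries did not overlap. Over the 3 stages, 14 members were called lower at each, of which 6 were H4, 6 H3, 1 H2B and 1 H1, and 0 were called higher at each, where 4.15% and 3.5% of all tested genes were called lower and higher at each. HIST2H3A and HIST2H3C, counted among the H3 genes, have identical transcripts and identical values, so they are 1 measurement.

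Of 51 core genes tested, 11 were called higher in HBBko at 5 d, where 26.5% of all tested genes were. They were 4 of 14 H2A, 5 of 13 H2B, 1 of 11 H3 and 1 of 13 H4 genes, so H2A was near the share of all genes. HIST1H2BK (chr6:27146418-27146798, minus strand), the core gene with the highest mean over the libraries, was at 18.8, 16.1 and 23.9 in WT and 55.4, 51.7 and 77.5 in HBBko, a difference of 1.60 ± 0.15 (limma, adjusted p = 2.2e-07). The summed pair of HIST2H2AA3 and HIST2H2AA4 was 30.6 ± 3.12 (SD, n = 3) in WT and 80.3 ± 21.2 in HBBko, a difference of 1.34 ± 0.16 (limma, adjusted p = 4e-06). HIST1H3H was at 3.86, 4.10 and 4.15 against 7.79, 8.001 and 11.3, a difference of 0.98 ± 0.12 (limma, adjusted p = 6.3e-06), and was the only H3 gene called higher. WT and HBBko did not overlap for these genes. HIST1H2AC, named after its values were seen, was at 4.22, 4.25 and 4.78 against 11.4, 11.5 and 14.7, a difference of 1.31 ± 0.10 (limma, adjusted p = 1.8e-08). HIST1H2AI and HIST1H2BJ were higher by 0.94 ± 0.22 and 0.83 ± 0.16, with limma adjusted p of 0.002 and 0.00029.

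**Figure D4:**
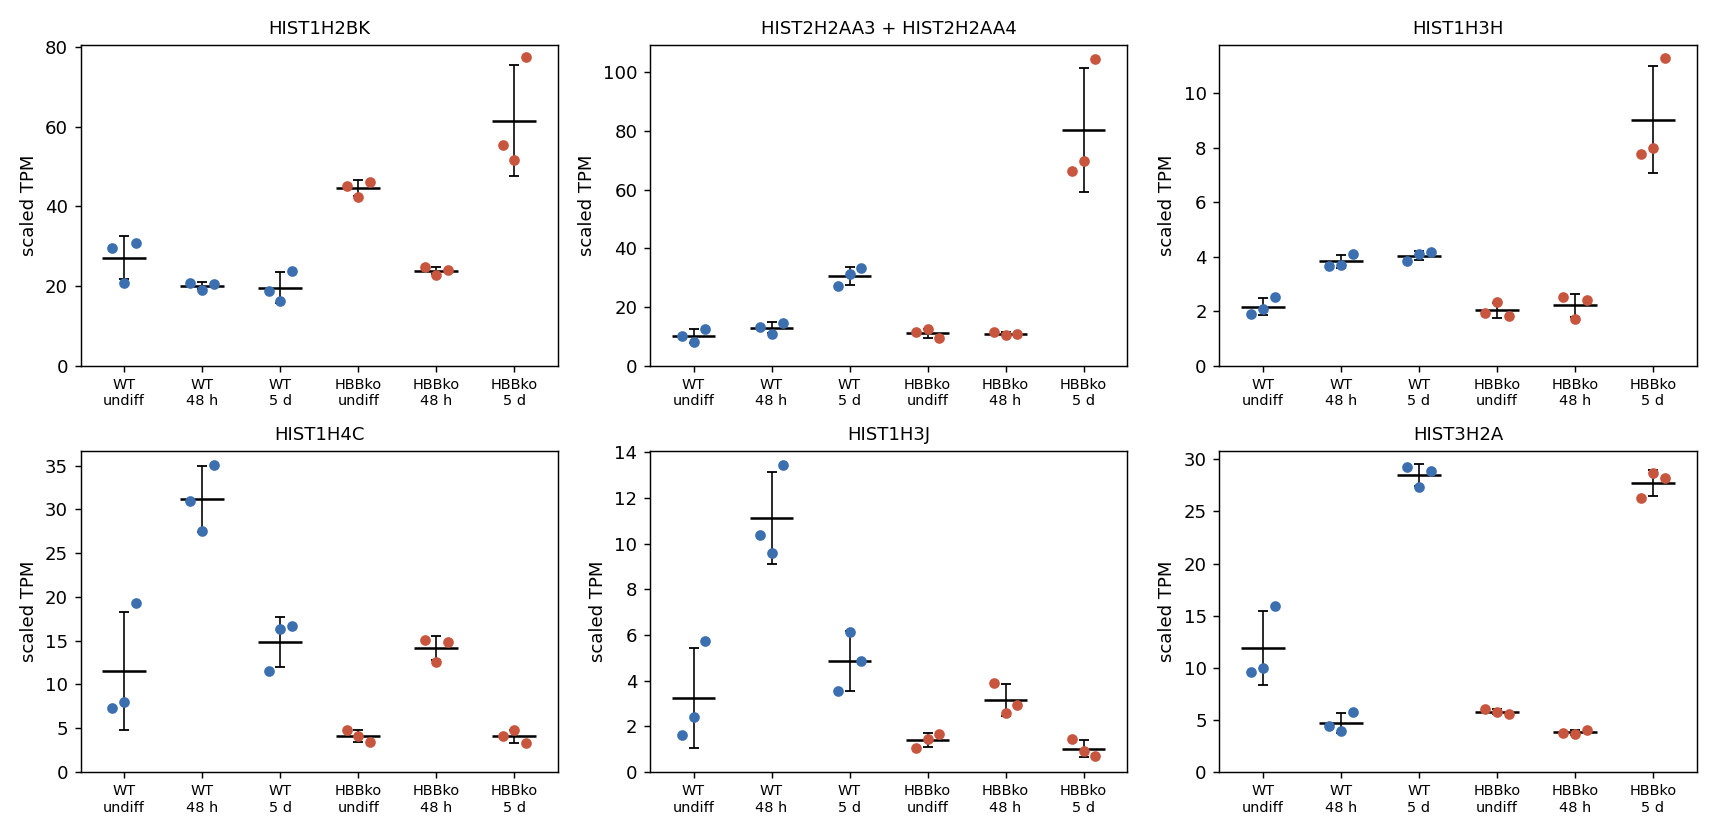
Level in scaled TPM (y axes, linear, each with its own range) of 5 core histone genes and of 1 summed pair, by group (x axis). Points are libraries, lines the mean of 3 and bars the SD; HIST1H2BK, the HIST2H2AA3 and HIST2H2AA4 pair and HIST1H3H are highest in HBBko at 5 d, HIST1H4C and HIST1H3J are highest in WT at 48 h, and HIST3H2A is at like levels in both lines at 5 d (27.3 to 29.2 in WT, 26.3 to 28.7 in HBBko).

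The calls at 5 d were also counted by the length of the gene model. Core genes whose GENCODE model spans more than 1000 bases had 7 called higher and 5 lower of 19 in HBBko at 5 d, with a median log2 fold change of 0.13. Core genes with shorter models had 4 higher and 14 lower of 32, with a median of -0.50. At 48 h the longer models had 10 called lower of 19 and the shorter ones 25 of 32. Over all tested genes, 26.5% were called higher and 24.8% lower at 5 d, and 9.21% lower at 48 h. The difference between longer and shorter models was not tested. H2B genes were more frequent among the longer models and H2A genes among the shorter ones, so length and class cannot be told apart here. HIST1H2BK and the HIST2H2AA3 and HIST2H2AA4 pair have short models and were higher at 5 d, while HIST1H3J has a long one and was lower.

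Along differentiation, most members rose to 48 h in WT and fell again by 5 d. In WT, 36 of 55 rose and 2 fell from undifferentiated to 48 h, where 23.5% of all tested genes rose and 41.4% fell, and the median of the 55 was 0.63 against -0.10. From 48 h to 5 d in WT, 7 rose and 33 fell, where 30.8% and 49.5% of all tested genes did. Of 11 H3 genes 10 rose to 48 h and 10 fell by 5 d, and of 13 H4 genes 10 and 10. HIST1H4F rose by 1.62 ± 0.31 and then fell by 1.51 ± 0.31, with limma adjusted p of 0.00022 and 0.00028. HIST1H4C rose by 1.48 ± 0.24 and then fell by 1.03 ± 0.24, with limma adjusted p of 4.4e-05 and 0.00088.

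In HBBko cells the members moved in both directions, with H4 genes rising to 48 h and several H2A and H2B genes rising by 5 d. From undifferentiated to 48 h, 17 of 55 rose and 7 fell, where 25.1% of all tested genes rose and 40.1% fell. Of 13 H4 genes 7 rose, with HIST1H4C up by 1.58 ± 0.24 (limma, adjusted p = 2.2e-05). Among those that fell were HIST1H2BK, by 0.88 ± 0.15, and HIST1H2BL, by 0.65 ± 0.17, with limma adjusted p of 6.8e-05 and 0.0026. From 48 h to 5 d, 19 rose and 19 fell, where 30.2% and 49.5% of all tested genes did. After rescaling to equal library sums, 17 of 57 rose and 28 fell, or 29.8% and 49.1%, where 16.4% and 66.4% of all tested genes did, and that scaling lowers the median of all tested genes by -0.37. HIST1H2BK rose by 1.31 ± 0.15 (limma, adjusted p = 3.5e-07) and the HIST2H2AA3 and HIST2H2AA4 pair by 2.75 ± 0.16 (limma, adjusted p = 5.3e-11).

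HIST3H2A, an H2A gene of the small cluster on chromosome 1 (chr1:228456979-228457873, minus strand), followed a different course from most members. It was at 9.62, 9.96 and 15.9 in undifferentiated WT, 4.37, 3.96 and 5.72 at 48 h, and 29.2, 27.3 and 28.9 at 5 d. In HBBko it was at 6.01, 5.72 and 5.56, then 3.72, 3.62 and 4.02, then 26.3, 28.7 and 28.2. Thus it was lowest at 48 h, when most members were highest in WT, and the 2 lines overlapped at 5 d. It fell by 1.15 ± 0.14 to 48 h in WT and by 0.50 ± 0.14 in HBBko, then rose by 2.39 ± 0.14 and 2.59 ± 0.14, with limma adjusted p of 1e-06, 0.0039, 2.9e-11 and 1.1e-11. Undifferentiated HBBko was lower by -0.89 ± 0.14 (limma, adjusted p = 8e-05), and at 5 d the difference was -0.04 ± 0.14 (limma, adjusted p = 0.84); after rescaling to equal library sums the latter turned to 0.28 (limma, adjusted p = 0.043). HIST2H2BF also rose from 48 h to 5 d in both lines, by 1.37 ± 0.14 in WT and 1.31 ± 0.14 in HBBko, with limma adjusted p of 5.1e-08 and 9.5e-08.

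**Figure D5:**
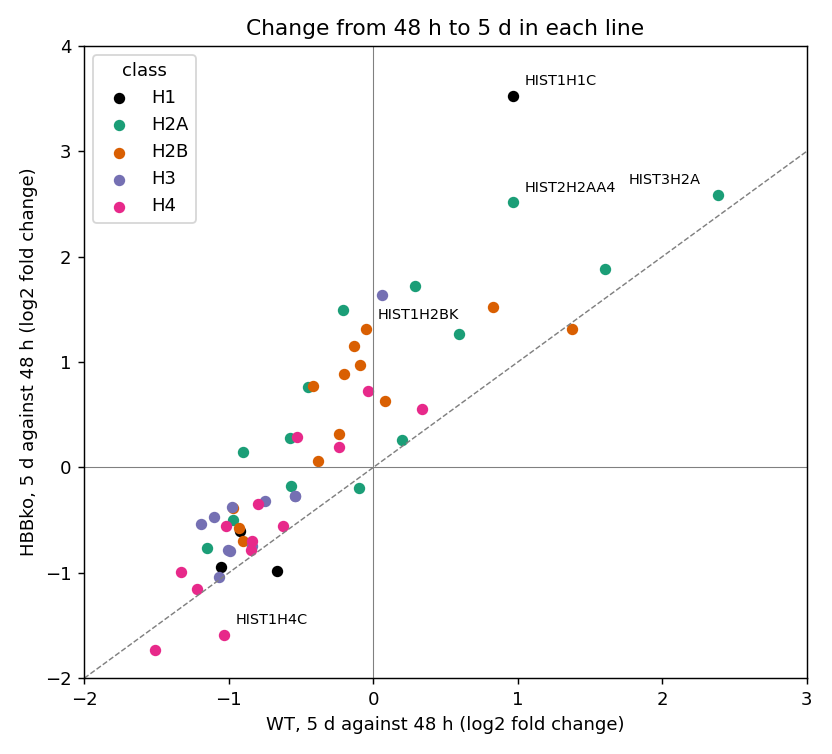
Log2 fold change from 48 h to 5 d in WT (x axis) against HBBko (y axis) for the 55 tested histone genes, coloured by class, with the dashed line at equal change. HIST1H1C (0.97 in WT, 3.53 in HBBko) and HIST2H2AA4 lie far above the line, and HIST1H4C (-1.03 and -1.59) lies below it.

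Whether the 2 lines moved differently between stages was tested with interaction terms. From 48 h to 5 d, 16 of 55 members moved up more, or down less, in HBBko and 0 the other way, where 11.5% and 13.1% of all tested genes did. These were 1 of 4 H1, 6 of 14 H2A, 6 of 13 H2B, 1 of 11 H3 and 2 of 13 H4 genes. Apart from HIST1H1C, the largest were HIST1H2AI at 1.70 ± 0.31 and HIST1H3H at 1.57 ± 0.18, with limma adjusted p of 0.00077 and 1.1e-05. HIST1H4J (chr6:27824108-27824480, plus strand), the H4 gene with the highest mean level, was at 19.7, 20.4 and 32.2 in WT and 11.2, 10.01 and 9.82 in HBBko at 48 h, and at 16.8, 15.2 and 16.1 against 11.4, 12.6 and 14.6 at 5 d. Its lines stayed apart at both stages, and its interaction was 0.81 ± 0.23 (limma, adjusted p = 0.016). HIST1H4C, with an interaction of -0.55 ± 0.34 (limma, adjusted p = 0.26), had the lowest value of the members on this term. From undifferentiated to 48 h, 2 members had a positive and 2 a negative interaction, where 7.67% and 5.51% of all tested genes did. They were HIST3H2A at 0.66 ± 0.19, HIST2H2BF at 0.64 ± 0.19, HIST2H2AC at -0.67 ± 0.16 and HIST1H4D at -1.19 ± 0.38, with limma adjusted p of 0.034, 0.039, 0.014 and 0.046. Without WT undifferentiated replicate 3, 1 was positive and 13 negative, where 7.61% and 5.82% of all tested genes were. Leaving out any 1 HBBko library of these stages, or WT replicate 1 of 48 h, left 1 or 2 in all.

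Other genes of histone supply were called in both directions undifferentiated and at 5 d, and at 48 h nearly all called ones were higher in HBBko. Over all tested genes, 20.9% were higher and 22.3% lower undifferentiated, 9.52% and 9.21% at 48 h, and 26.5% and 24.8% at 5 d. Of 24 S-phase and replication genes, all tested, 5 were higher and 6 lower in undifferentiated HBBko, 5 higher and 1 lower at 48 h, and 3 higher and 6 lower at 5 d. Their medians were -0.06, 0.07 and -0.01, while the histone members had -0.44, -0.91 and -0.37. E2F2, an E2F transcription factor, was lower at each stage (-0.56, -0.58 and -0.33), and was the only S-phase gene called lower at 48 h. GINS1 (0.29) and CDC45 (0.28) were among the 5 higher at 48 h. Of 17 tested genes for histone message processing (18 listed), 5 were higher and 3 lower undifferentiated, 2 and 0 at 48 h, and 9 and 2 at 5 d. At 5 d they included CSTF2, a subunit of the cleavage stimulation factor, at 0.53 ± 0.07 and LSM10, a subunit of the U7 snRNP that cuts histone messages, at -0.84 ± 0.06. Of 16 histone chaperones, 2 were higher and 3 lower undifferentiated, 5 and 0 at 48 h, and 3 and 3 at 5 d.

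Replacement histones, whose genes are also expressed outside S phase, were called in both directions, and the linker forms H1F0 and H1FX rose by 5 d in both lines. Of 10 tested (12 listed), 2 were higher and 3 lower in undifferentiated HBBko, 0 and 1 at 48 h, and 3 and 2 at 5 d. Over all tested genes, 20.9% were higher and 22.3% lower undifferentiated, 9.52% and 9.21% at 48 h, and 26.5% and 24.8% at 5 d. The counts of this short list were near those shares. H1F0, the replacement linker histone of cells that differentiate, was at a mean of 2.72, 6.62 and 128 in WT and 1.02, 4.10 and 148 in HBBko in order of stage. It rose from 48 h to 5 d by 4.12 ± 0.24 in WT and by 4.87 ± 0.24 in HBBko, and was lower in undifferentiated HBBko by -0.78 ± 0.24 (limma adjusted p of 2.9e-11, 3.6e-12 and 0.014). H1FX, another replacement linker histone, was at a mean of 38.0, 50.9 and 113 in WT and 32.2, 41.3 and 140 in HBBko. It rose from 48 h to 5 d by 1.13 ± 0.12 in WT and 1.73 ± 0.12 in HBBko, with an interaction of 0.60 ± 0.17 (limma adjusted p of 1.4e-07, 4.8e-10 and 0.018), and was higher in HBBko at 5 d by 0.31 ± 0.12 (limma, adjusted p = 0.044). Others fell, such as H2AFZ (-0.76) and CENPA (-0.41) to 48 h in WT and H2AFY (-0.35) from 48 h to 5 d in WT. At 5 d both H1F0 and H1FX were above HIST1H1C in WT (mean 66.8) and below it in HBBko (mean 381), on the scaled TPM scale, which is per length.

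The authors' deposited table for each stage gave the following values for the genes named most above. In the authors' deposited table for 5 d, HIST1H1C had a log2 fold change of 2.48 (q = 1.5e-34), HIST1H2BK 1.63 (q = 2.9e-10) and HIST1H4C -1.87 (q = 1.4e-13). Of the 62 members listed there, 14 were higher and 22 lower at q under 0.05, where 21.9% and 21.4% of its genes were. In the authors' deposited table for 48 h, 47 of 62 listed members were lower and 1 higher at q under 0.05, where 14.4% and 14.9% of its genes were. The 1 higher was HIST1H2BK (0.23, q = 0.041 in the authors' deposited table), which was not called at 48 h in the limma fit. The authors' deposited table for undifferentiated cells had 10 lower and 2 higher of 60 listed members, where 13.4% and 11.6% of its genes were. HIST1H1D did not pass there (-1.21, q = 0.12 in the authors' deposited table), while it was called lower in undifferentiated cells in the limma fit. Its undifferentiated levels were low and overlapped, at 0.956, 1.86 and 2.17 in WT and 0.508, 1.28 and 0.465 in HBBko.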

How the data were processed

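Libraries from 6 groups of 3 were compared. Per the submitters' processing notes, reads were handled with kallisto and sleuth on hg38; versions and transcript annotation are not given in the sources used here. The authors deposited 1 table of signal per gene symbol, named as scaled TPM; library sums differ, so it is not plain TPM, for which the test had been planned, and the test was kept. The authors also deposited, per stage, tables of log2 fold changes and their standard errors and, per the file headers, a p-value and q-value per gene.

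Values were taken as log2(scaled TPM + 1) and fitted with limma 3.58.1 under R 4.3.3 (lmFit, eBayes with trend), all 18 libraries in 1 fit with 6 group means, two-sided, Benjamini-Hochberg adjusted over 12005 genes at 1 or more in at least 3 libraries. The script was tested on simulated data. The histone genes and lists were chosen with earlier results of these data known. Named genes were every linker gene past the filter, the 8 core genes with the highest mean, the 3 called members with the largest change each way per comparison and the 2 such genes of each list; HIST1H2AC is an exception. Same-numbered libraries of undifferentiated HBBko and WT deviated together across genes (correlations of 0.12 to 0.17), as did those at 5 d (0.13 to 0.18) and those of WT at 48 h and undifferentiated (0.10 to 0.19). Those of HBBko at 5 d and 48 h did so weakly (0.02 to 0.08), and those of the other comparisons had correlations of both signs. The labels do not say what a number marks. Alternatives were other pseudocounts, filters, scalings, weights, a replicate block, summed copies and left-out libraries.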

Additional observations from a re-analysis of the deposited data

Results flagged for a closer look

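The change from undifferentiated to 48 h differed between HBBko and WT in 4 histone genes by the interaction term in limma, at HIST2H2AC (-0.67), HIST3H2A (0.66), HIST2H2BF (0.64) and HIST1H4D (-1.19). The last 3 of these calls were lost when single libraries were left out, and the first was kept. The change from 48 h to 5 d differed in 16 histone genes, and the named ones were HIST1H1C (2.56), HIST1H2AI (1.70), HIST1H3H (1.57), HIST2H2AA4 (1.55), HIST1H2BK (1.36), HIST1H2BJ (1.28), HIST1H4J (0.81) and HIST2H2AC (0.67). For the summed HIST2H2AA3 and HIST2H2AA4 pair that difference was 1.56 ± 0.23 (limma, adjusted p = 0.00013). HIST2H2BC, a pseudogene outside the gene set, was at a mean of 5.19 scaled TPM in undifferentiated HBBko, 5.87 at 48 h and 10.9 at 5 d, against 3.98, 4.34 and 4.71 in WT.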

How the results depend on the processing

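The count of histone genes called in undifferentiated HBBko against WT was 25, and became 14 with a filter of above 0 in 3 libraries, 11 with only the compared groups in the fit, 10 with library weights and 12 without replicate 3 of undifferentiated WT and of WT at 48 h together (chosen after seeing the data). Leaving out 1 library at a time gave 11 to 34. In the main fit the 25 were 3 higher and 22 lower of 55 tested, where 20.9% and 22.3% of all tested genes were. These totals join both directions, so they show how stable the count was and not a difference from other genes. The interaction count from undifferentiated to 48 h was 4, and became 8 with a pseudocount of 5, 1 with the wider filter, 13 with library weights, 11 with the replicate block, 8 after scaling to equal sums without globins and 7 without both WT replicates 3 (the last 2 chosen after seeing the data); leaving out 1 library gave 1 to 14. In these calls, 2 members were higher and 6 lower after scaling without globins, where 5.99% and 5.87% of all tested genes were, and 2 and 9 with the replicate block, where 8.84% and 6.39% were. The block moved no other count by over 1.5 times, and HIST1H1B in undifferentiated cells became called (-0.68, limma adjusted p = 0.044). The other counts stayed within that range under the alternatives run, at 26 to 39 for HBBko against WT at 48 h, 27 to 36 at 5 d and 16 to 17 for the later interaction with 1 library left out. In the main fit 9.52% of all tested genes were higher and 9.21% lower at 48 h, and 26.5% and 24.8% at 5 d. For the earlier interaction the shares were 7.67% and 5.51%, and for the later one 11.5% and 13.1%. Scaling to equal library sums reversed HIST3H2A in HBBko against WT at 5 d (0.28) and HIST1H3H from 48 h to 5 d in WT (-0.44); it shifts the median of all tested genes by 0.25 and -0.50 in those comparisons. The cause of these changes was not tested. Depth is unknown, so genes near 1 scaled TPM carry the least certain values.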
